A study of Mus musculus with 37 samples.

Results

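The 7 genes described here are Dnmt1, Uhrf1, Hells, Uhrf2, Dnmt3a, Dnmt3b and Dnmt3l. They encode some of the DNA methyltransferases of the mouse, and proteins that work with these enzymes or are related to such proteins. They were chosen by symbol from the 24318 genes in each of the deposited tables, and all 7 were found. The question put to them was whether any other member was higher once Dnmt1 had been deleted in primordial germ cells (PGCs), from which eggs and sperm arise. Dnmt1 was the member that differed past the threshold, and it was lower. Uhrf1 was higher in most DCKO libraries without passing the test over all genes, and Dnmt3l was listed at 0 in every library.

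Polyadenylated RNA was sequenced from GFP-positive cells sorted from embryos that carried the reporter Oct4-IRES-Gfp. DCKO embryos, with the genotype Dnmt1 -/- in the labels, came from mothers homozygous for a floxed Dnmt1 allele (Dnmt1 2lox) and fathers carrying Blimp1-Cre, a driver active in germ cells and in some other cells of the early embryo. Control embryos are labelled wild type and came from the same kind of cross, so that by this cross each of them also inherited 1 floxed allele from its mother, and the Dnmt1 genotype of the fathers is not given. The E10.5 groups held 3 DCKO libraries, of which 2 were female and 1 male, and 4 controls, 2 per sex. The E11.5 groups held 10 DCKO libraries, of which 6 were female and 4 male, and 8 controls, 4 per sex. The 12 E13.5 samples were not analysed here.

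In mammals, symmetric CpG methylation is kept through cell division by DNMT1, which methylates the new strand after replication. UHRF1 binds hemimethylated CpGs and ubiquitinates histone H3, and this draws DNMT1 to the replicated DNA. HELLS is a chromatin remodeller that supports methylation of packed chromatin, and UHRF2 is a paralog of UHRF1 that does not replace it in maintenance. DNMT3A and DNMT3B place methylation on unmethylated DNA, helped in germ cells by DNMT3L, which has no catalytic activity of its own. PGCs of this age lose most of their DNA methylation, and low UHRF1 in the nucleus is a known feature of these cells.

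Values are RPKM, read values corrected for gene length and for the mapped reads of the library, and the stages were tested apart, each in its table. Tests used limma on log2(RPKM + 1) over all genes averaging 1 RPKM or more, 12667 at E11.5 and 11584 at E10.5, with Benjamini-Hochberg adjustment over all of them and a threshold of 0.05. Of the 7 members 6 passed this filter at each stage, and Dnmt3l did not. Fold changes on this scale understate the change of low genes. The title of each sample used ends in a number that differs between libraries sharing the first number of the title. The labels do not say that it marks the embryo, so whether each library came from its own embryo is not certain. A p-value here sets a difference against the scatter of these samples, which may be in part technical. In bulk samples, fewer cells of a type and less RNA per cell cannot be told apart.

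The cells carried germ cell RNA in both genotypes. Dppa3, a germ cell and pluripotency gene, had 643 to 2821 RPKM in DCKO and 153 to 2774 RPKM in control libraries at E11.5. Markers of 5 somatic classes (gonadal somatic cells, mesenchyme, endothelium, erythroid cells and macrophages, 49 genes) had a mean log2(RPKM + 1) of 0.45 to 3.24 in E11.5 DCKO libraries and of 0.75 to 3.98 in controls. Their summed level ran from 119 to 2475 RPKM in DCKO and from 209 to 3793 RPKM in controls, and 3 of the 49 genes in DCKO and 1 in controls were listed at 0 throughout. The 3 libraries highest in this measure were female DCKO 4 (3.24), male DCKO 1 (2.40) and male control 3 (3.98). Male control 3 also had the lowest mean of the PGC identity genes, at 3.52. Male DCKO 4 and male control 4 had the fewest genes at 1 RPKM or more, 8607 and 8277. Some fold changes and ratios at E11.5 are also given without these libraries. At E10.5 the somatic measure ran from 0.67 to 1.33 in DCKO and from 0.61 to 2.36 in controls.

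The promoters of the members were also compared in sequence. The 250 bases before each annotated start in RefSeq (build GRCm38.p6, while the deposited tables were made on mm9) were searched on both strands for 4 spellings of the site bound by E2F factors, the activators of S phase genes. These were TTTCCCGC, TTTGGCGC, TTTCGCGC and TTTGCCGC. All 7 members had an entry, 14 windows in all. Dnmt1, Uhrf1 and Hells each held 1 match and the other 4 members held none, while 1.86% of all 32851 windows held a match. That share is per window, and a gene here had 1 to 3 windows. Each spelling contains CG, and the matching windows held 26 (Dnmt1), 30 (Uhrf1) and 28 (Hells) CpGs, beside a median of 6 over all windows. A Dnmt3a window with 40 CpGs held no match. The share of matches among windows as rich in CpG was not computed, so the matches are not shown to exceed it. The 30 bases around each match follow, 5′ to 3′ along the gene's own strand, with the matching letters in capitals.
Dnmt1, chr9:20952824-20952853, minus strand: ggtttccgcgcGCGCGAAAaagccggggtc
Uhrf1, chr17:56304117-56304146, plus strand: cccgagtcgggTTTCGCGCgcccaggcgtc
Hells, chr19:38930917-38930946, plus strand: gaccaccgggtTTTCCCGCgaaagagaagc
The match lies 219 bases before 1 of 3 listed starts of Dnmt1, 185 bases before 1 of 2 listed starts of Uhrf1 and 62 bases before the start of Hells. A match describes the letters and does not show that a factor binds there.

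Dnmt1, the targeted gene, checks the genotype labels. At E11.5 it read 19.5, 58.4, 28.7, 23.1, 17.95 and 21.1 RPKM in female DCKO libraries 1 to 6 and 59.4, 23.1, 32.2 and 12.9975 RPKM in male DCKO libraries 1 to 4. It read 85.4, 175, 72.9 and 152 RPKM in female control libraries 1 to 4 and 75.9, 88.9, 94.8 and 296 RPKM in male control libraries 1 to 4. The groups did not overlap in either sex, and the DCKO median was 25.1% of the control median. Female DCKO 2 and male DCKO 1 were the highest DCKO libraries of their sex. Of all genes tested at E11.5, 0.0316% lay lower in every DCKO library than in any control, and Dnmt1 was the only member among them. Within females 0.845% of genes did so and within males 1.49%, again with Dnmt1 as the only member.

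The E11.5 log2 fold change of Dnmt1 was -2.07 (SE 0.34, adjusted p = 0.0355, limma), lower in 10 of 10 DCKO libraries. It was the only member past the threshold, which 0.0237% of all genes passed. Taken within sex, the log2 fold change was -2.10 (SE 0.46) in females and -2.05 (SE 0.50) in males. The male value was -2.51 without the 3 libraries highest in somatic markers and -1.26 without the 2 with the fewest genes. In neither sex alone did a member pass (adjusted p of Dnmt1 0.567 and 0.585, limma), where 0.00789% of all genes passed in females and 0.0316% in males. The interaction of genotype with sex was -0.05 (SE 0.68, adjusted p = 0.997, limma). The E11.5 call was lost on leaving out any 1 of 12 of the 18 libraries, with adjusted p up to 0.124. It was also lost without the 3 libraries highest in somatic markers (log2 fold change -2.29, adjusted p = 0.0538) and without the 2 with the fewest genes (-1.68, adjusted p = 0.121).

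At E10.5 Dnmt1 read 29.6 and 20.02 RPKM in the female DCKO libraries and 14.9 RPKM in the male one, against 82.8 and 74.1 RPKM in female and 99.97 and 107 RPKM in male control libraries. These groups did not overlap either, and 2.87% of the genes tested at this stage lay lower without overlap in this way. The DCKO median was 21.9% of the control median. No member passed the threshold at E10.5 (0% of all genes passed in limma, and 358 genes, 3.09%, had an unadjusted p under 0.05). Dnmt1 was the 1 member with an unadjusted p under 0.05 there (log2 fold change -2.07, SE 0.38, adjusted p = 0.991, limma), and its exact permutation p was 0.0286, the smallest that 35 splits allow. The tables hold 1 value per gene, so transcripts of the deleted allele that are still made count in these values.

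**Figure D1:**
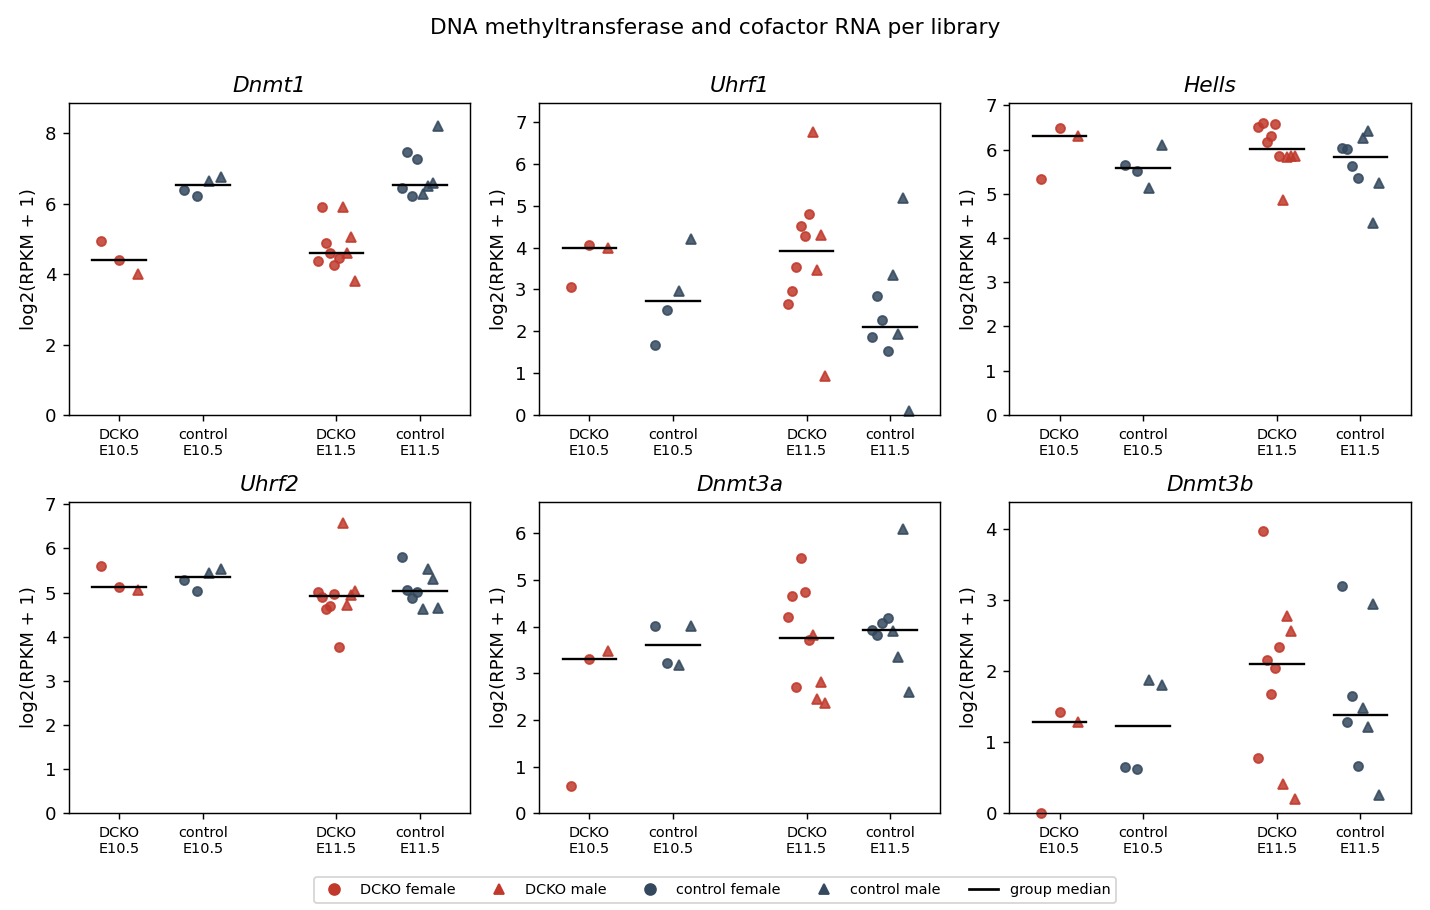
Level of 6 members in each library as log2(RPKM + 1), for DCKO (red) and control (blue-grey) at E10.5 and E11.5; circles are female and triangles male libraries, and black lines are group medians. Dnmt1 is lower in each DCKO library than in each control library at both stages, while the groups of the other 5 genes overlap.

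Uhrf1, the cofactor that guides DNMT1 to replicated DNA, was the member with the largest positive fold change at both stages. At E11.5 it read 5.26, 6.77, 10.6, 21.9, 18.5 and 27.0 RPKM in female DCKO libraries 1 to 6, against 2.64, 6.23, 3.79 and 1.91 RPKM in female control libraries 1 to 4. All 6 female DCKO libraries lay above the female control median and 5 of 6 lay above the highest female control. In males it read 108, 9.96, 18.7 and 0.918 RPKM in DCKO libraries 1 to 4, against 9.17, 2.82, 35.5 and 0.0701 RPKM in control libraries 1 to 4. The male groups overlapped widely, with 3 of 4 DCKO libraries above the male control median. Over both sexes 9 of 10 DCKO libraries lay above the control median and 1 lay above the highest control.

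The E11.5 medians of Uhrf1 were 14.5 RPKM in DCKO and 3.30 RPKM in controls, a ratio of 4.40. Uhrf1 ranked above 80.4% of genes in the median DCKO library and above 64.3% in the median control library. The log2 fold change was 1.44 (SE 0.70, 95% interval -0.03 to 2.91, adjusted p = 0.902, limma). An exact permutation test of Uhrf1 alone, two-sided over all 43758 splits, gave p = 0.0627. In females the log2 fold change was 1.66 (SE 0.94, adjusted p = 1, limma) and the exact permutation p of the gene alone was 0.0190. In males it was 1.22 (SE 1.04, adjusted p = 0.847, limma) with an exact permutation p of 0.486, and this male value was 0.26 without male DCKO 1 and 2.1996 without male DCKO 4. The difference between the sexes was 0.44 (95% interval -2.50 to 3.38, adjusted p = 0.995, limma). Each of the 6 genes was tested in this way at E10.5, and at E11.5 over both sexes and within each sex. These permutation p-values were not adjusted for that.

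Single libraries moved the Uhrf1 result in both directions. The log2 fold change was 0.96 without male DCKO 1 and 1.02 without male control 4, and it was 1.93 without male DCKO 4 and 1.87 without male control 3. Over both sexes it was positive in every setting tried. With 1 library left out, the exact permutation p lay between 0.0140 (without male control 3) and 0.136 (without male control 4). It was 0.0160 without male DCKO 4, and it was 0.201 on RPKM without the log scale. Over both sexes the adjusted p in limma was 0.346 or more in all settings.

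The libraries with the highest Uhrf1 were among those highest in somatic markers. Male DCKO 1, with 108 RPKM, and male control 3, with 35.5 RPKM, had somatic means of 2.40 and 3.98. Without the 3 libraries highest in somatic markers, the log2 fold change was 1.31 (SE 0.59, adjusted p = 0.727, limma) and the exact permutation p was 0.0370. With the somatic mean as a covariate it was 1.80 (SE 0.52, adjusted p = 0.346, limma), and with the proliferation mean instead it was 1.04 (SE 0.58, adjusted p = 0.758, limma). It was also 1.04 with library weights and 1.03 with the first number in the sample title (the title number) as a block. Without the 2 libraries with the fewest genes, which had the lowest Uhrf1 of their groups, it was 1.51 (SE 0.55, adjusted p = 0.696, limma), with an exact permutation p of 0.0363.

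At E10.5 Uhrf1 read 7.28 and 15.8 RPKM in the female DCKO libraries and 14.8 RPKM in the male one, against 2.18 and 4.69 RPKM in female and 6.75 and 17.5 RPKM in male control libraries. All 3 DCKO libraries lay above the control median, but the highest value was in a control, male control 2, which also had the highest somatic mean of that stage at 2.36. The ratio of the medians was 2.59, and the log2 fold change was 1.04 (SE 0.63, 95% interval -0.38 to 2.47, adjusted p = 0.991, limma). The exact permutation p was 0.257, where 35 splits allow no value under 0.0286. Without male control 2 it was 0.1, the smallest value that design allows.

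**Figure D2:**
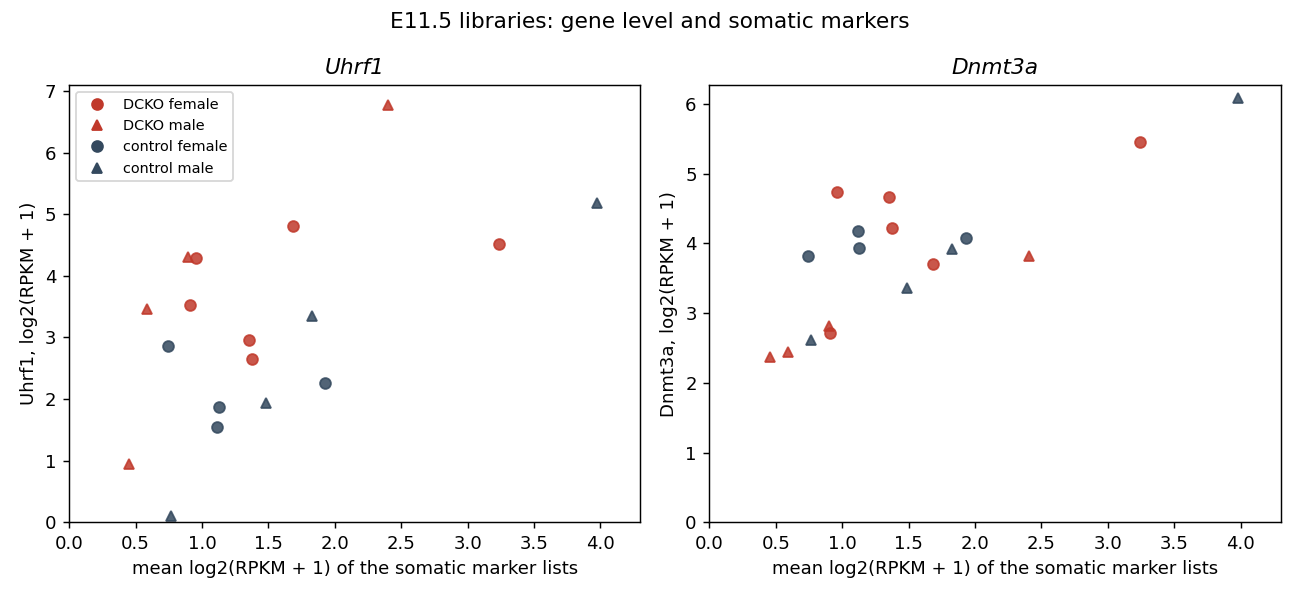
Level of Uhrf1 (left) and Dnmt3a (right) in each E11.5 library as log2(RPKM + 1), against the mean log2(RPKM + 1) of 49 somatic marker genes; DCKO in red, control in blue-grey, circles female, triangles male. Male control 3, at a somatic mean of 3.98, has the highest Dnmt3a and the highest control Uhrf1, and male DCKO 1, at 2.40, has the highest Uhrf1 of all.

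Since Dnmt1 fell and Uhrf1 did not, the balance of the 2 genes differed between genotypes. Uhrf1 over Dnmt1, both in RPKM, ran from 0.0706 through a median of 0.507 to 1.81 in E11.5 DCKO libraries. In E11.5 controls it ran from 2.4e-04 through a median of 0.0336 to 0.374. The ratio exceeded 1 in 3 of 10 DCKO libraries and in 0 of 8 controls, and the ranges overlapped. Without the 3 libraries highest in somatic markers it ran from 0.0706 through 0.401 to 1.28 in DCKO and from 2.4e-04 through 0.0317 to 0.121 in controls. Without the 2 with the fewest genes it ran from 0.116 through 0.581 to 1.81 in DCKO and from 0.0126 through 0.0356 to 0.374 in controls. At E10.5 it lay between 0.246 and 0.993 in the 3 DCKO libraries and between 0.0263 and 0.164 in the 4 controls, with no overlap. The lower Dnmt1 by itself raises this ratio, so it is no separate evidence on Uhrf1. Uhrf1 over its paralog Uhrf2, which does not hold Dnmt1, had a median of 0.529 in DCKO (0.0288 to 2.15) and of 0.0984 in controls (0.00292 to 0.922) at E11.5. Without the 3 libraries highest in somatic markers it was 0.419 in DCKO (0.0288 to 2.15) and 0.0625 in controls (0.00292 to 0.385). Without the 2 with the fewest genes it was 0.613 in DCKO (0.168 to 2.15) and 0.134 in controls (0.0480 to 0.922). A lower Uhrf2 by itself raises this ratio, and in E11.5 females the log2 fold change of Uhrf2 was -0.52 (SE 0.38). At E10.5 the median of Uhrf1 over Uhrf2 was 0.456 in DCKO and 0.154 in controls.

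**Figure D3:**
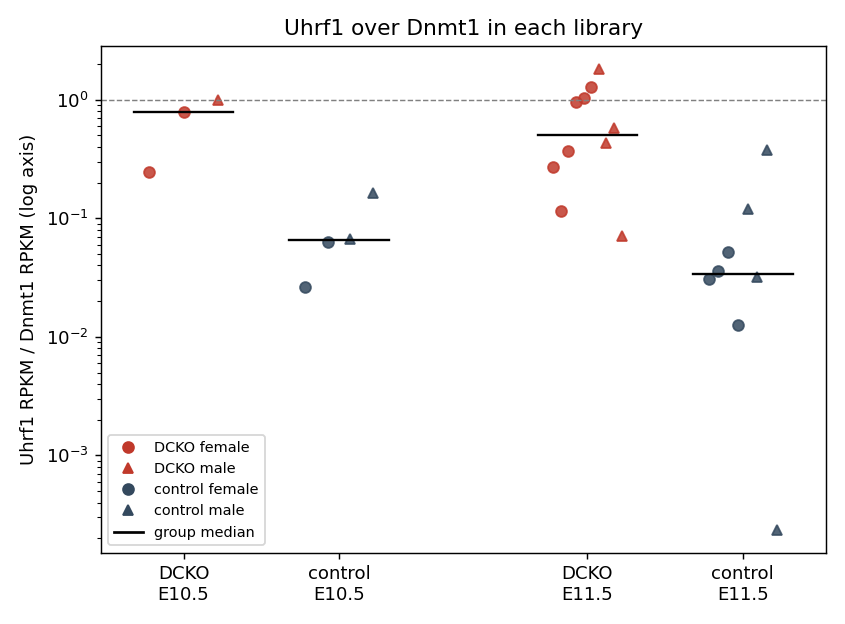
Uhrf1 RPKM divided by Dnmt1 RPKM in each library, on a log axis, for DCKO (red) and control (blue-grey) at E10.5 and E11.5; circles are female and triangles male libraries, black lines are medians and the dashed line marks a ratio of 1. The medians are 0.787 in DCKO and 0.0654 in controls at E10.5, and 0.507 in DCKO and 0.0336 in controls at E11.5.

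Hells, the chromatin remodeller, was among the most abundant members in both genotypes. At E11.5 it read 89.5, 96.0, 70.9, 78.6, 94.0 and 56.4 RPKM in female DCKO libraries 1 to 6, against 64.4, 64.0, 48.4 and 40.2 RPKM in female control libraries 1 to 4. In females 5 of 6 DCKO libraries lay above the highest control. It read 27.9, 56.1, 56.7 and 56.6 RPKM in male DCKO libraries 1 to 4, against 76.2, 84.3, 19.1 and 36.6 RPKM in male control libraries 1 to 4. The male DCKO libraries lay inside the range of the male controls.

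The E11.5 log2 fold change of Hells was 0.30 (SE 0.27, 95% interval -0.27 to 0.87, adjusted p = 0.946, limma). In females it was 0.57 (SE 0.37, adjusted p = 1, limma), with an exact permutation p for the gene alone of 0.0286. In males it was 0.03 (SE 0.40), and it turned negative in several settings, among them without male control 3 (-0.38). The difference between the sexes was 0.54 (95% interval -0.60 to 1.68, adjusted p = 0.995, limma). The libraries with the lowest Hells of each genotype, male DCKO 1 and male control 3, also had the lowest means of the proliferation genes, 5.35 and 5.55 in log2(RPKM + 1). With the proliferation mean as a covariate the E11.5 log2 fold change was 0.47. At E10.5 Hells read 39.1 and 88.2 RPKM in the female DCKO libraries and 78.4 RPKM in the male one, against 48.9, 44.9, 34.1 and 67.5 RPKM in female controls 1 and 2 and male controls 1 and 2. Here 2 of 3 DCKO libraries lay above the highest control, and the log2 fold change was 0.47 (SE 0.43, 95% interval -0.50 to 1.45, adjusted p = 0.991, limma).

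Uhrf2 varied least of the 6 members between E11.5 libraries, with a mean absolute deviation of 0.37 in log2(RPKM + 1). Its E11.5 level was 33.4 ± 22.4 RPKM in DCKO (mean and SD, n = 10; 12.5, 29.4 and 95.0002 as lowest, median and highest) and 34.8 ± 10.8 RPKM in controls (mean and SD, n = 8; 23.8, 31.8 and 54.9). The log2 fold change was -0.11 (SE 0.28, 95% interval -0.71 to 0.48, adjusted p = 0.992, limma). In females all 6 DCKO libraries lay below the control median and 3 lay below the lowest control, with a log2 fold change of -0.52 (SE 0.38, adjusted p = 1, limma) and an exact permutation p of 0.0762. In males the log2 fold change was 0.29 (SE 0.42), and without male DCKO 1, which held 95.0002 RPKM, it was -0.13. At E10.5 Uhrf2 read 47.8, 33.8 and 32.5 RPKM in female DCKO 1 and 2 and male DCKO 1, against 38.0, 31.6, 42.4 and 45.3 RPKM in female controls 1 and 2 and male controls 1 and 2. The E10.5 log2 fold change was -0.04 (SE 0.37, 95% interval -0.88 to 0.80).

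Of the de novo enzymes among the members, Dnmt3a was the more abundant. At E11.5 it read 17.6, 24.3, 5.54, 43.1, 25.8 and 12.1 RPKM in female DCKO libraries 1 to 6, against 14.3, 13.1, 15.8 and 17.1 RPKM in female control libraries 1 to 4. The female DCKO libraries spread to both sides of the narrow control range, 4 above it and 2 below. In males it read 13.1, 4.46, 6.01 and 4.17 RPKM in DCKO libraries 1 to 4, against 14.1, 9.23, 67.1 and 5.11 RPKM in control libraries 1 to 4. The log2 fold change was -0.44 over both sexes (SE 0.44, 95% interval -1.36 to 0.48, adjusted p = 0.954, limma), and -0.092 without male control 3.

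Dnmt3a had the largest difference between the sexes among the members, with a log2 fold change of 0.25 (SE 0.59) in females and of -1.13 (SE 0.65) in males. The difference itself was 1.38 (95% interval -0.46 to 3.22, adjusted p = 0.995, limma), so it was within its error. The somatic marker lists also had medians above 0 in females and below 0 in males, other than the macrophage list, which was below 0 in both. Of 12 mesenchyme genes, 9 had a positive log2 fold change in females (median 0.70) and 0 in males (median -1.12). Over all genes the medians were -0.015 in females and -0.099 in males. In limma 0 of the 12 passed in either sex, with 0 in females and 2 in males at an unadjusted p under 0.05. Among all genes 2.17% in females and 6.95% in males had such a p. The 3 macrophage genes tested had medians of -0.21 in females and -2.27 in males. The 2 highest Dnmt3a values were in male control 3 and female DCKO 4, the 2 libraries highest in somatic markers. Without male control 3 the male log2 fold change was -0.43. With the somatic mean as a covariate it was -0.055 in females and -0.34 in males. The part of somatic cells in the Dnmt3a difference was not tested further. At E10.5 Dnmt3a read 0.507, 8.95 and 10.2 RPKM in female DCKO 1 and 2 and male DCKO 1, against 15.1, 8.29, 8.03 and 15.2 RPKM in female controls 1 and 2 and male controls 1 and 2. The E10.5 log2 fold change of -1.04 (SE 0.79, 95% interval -2.84 to 0.76, adjusted p = 0.991, limma) rested on the first of these, since it was -0.20 without female DCKO 1.

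Dnmt3b, the other de novo enzyme among the members, had the lowest median of the 6 members in both genotypes, with single libraries well above it. At E11.5 it read 0.712, 14.7, 3.45, 2.19, 3.13 and 4.07 RPKM in female DCKO libraries 1 to 6 and 0.327, 5.87, 4.91 and 0.156 RPKM in male DCKO libraries 1 to 4. It read 8.13, 1.44, 2.14 and 0.580 RPKM in female control libraries 1 to 4 and 1.79, 1.33, 6.72 and 0.192 RPKM in male control libraries 1 to 4. The groups overlapped over almost their whole range, with 7 of 10 DCKO libraries above the control median. The log2 fold change was 0.24 (SE 0.54, 95% interval -0.89 to 1.37, adjusted p = 0.991, limma), and 0.71 (SE 0.57) without the 3 libraries highest in somatic markers. In males alone it was 0.01 (SE 0.79), and 0.87 without those libraries. At E10.5 Dnmt3b was listed at 0 in female DCKO 1 and read 1.70 and 1.44 RPKM in female DCKO 2 and male DCKO 1, against 0.574, 0.536, 2.68 and 2.51 RPKM in female controls 1 and 2 and male controls 1 and 2. The E10.5 log2 fold change was -0.18 (SE 0.67, 95% interval -1.70 to 1.34). Dnmt3b over Dnmt3a had a median of 0.229 in DCKO and of 0.119 in controls at E11.5, with overlapping ranges (0.0249 to 1.32 and 0.0338 to 0.567). Without the 3 libraries highest in somatic markers those medians were 0.471 in DCKO and 0.127 in controls.

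Dnmt3l, the cofactor of de novo methylation in germ cells, was listed at 0 in all 10 DCKO and all 8 control libraries at E11.5 and in all 3 DCKO and all 4 control libraries at E10.5. The depth of these libraries is unknown, so no upper limit can be set on its level.

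**Figure D4:**
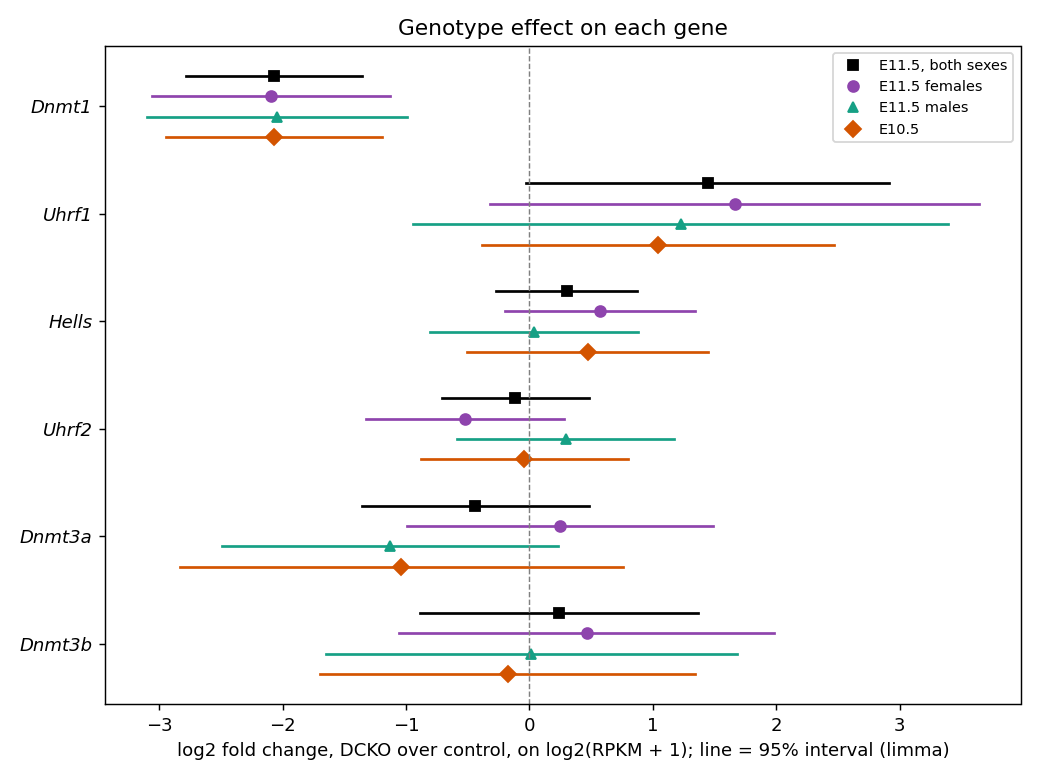
Log2 fold change of DCKO over control on log2(RPKM + 1), with limma's 95% interval, for 6 members at E11.5 over both sexes (black), in females (purple) and in males (green), and at E10.5 (orange). The intervals of Dnmt1 lie below 0 in all 4 comparisons, and those of the other 5 members include 0, with Uhrf1 at E11.5 reaching from -0.03 to 2.91.

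Over the 6 members tested at E11.5, 3 had a positive log2 fold change, where 45% of all genes did, and the median was 0.06 beside -0.06 over all genes. At E10.5 it was 2 of 6, where 46.8% of all genes did, with a median of -0.11 beside -0.05. These counts and medians include Dnmt1, the deleted gene, which lowers them and says nothing on the other members. No member was higher past the threshold in any genotype comparison. The E11.5 intervals over both sexes reach log2 fold changes of 0.87 for Hells, 0.48 for Uhrf2 and for Dnmt3a, 1.37 for Dnmt3b and 2.91 for Uhrf1. Increases up to those sizes lie within the error. Within females the intervals reach further, to 1.34 for Hells, 1.49 for Dnmt3a, 1.98 for Dnmt3b and 3.64 for Uhrf1. Within males that of Uhrf2 reaches 1.17. In control libraries the sexes differed by between -0.51 (Uhrf1) and 0.22 (Dnmt3b) on the log2 scale, female minus male, with an adjusted p of 1 in limma for all 6 (0.00789% of all genes passed).

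The order of the median levels, in RPKM, differed between the genotypes in the place of Dnmt1 and in that of Uhrf1 and Dnmt3a. The medians at E11.5 in DCKO ran from Hells (63.8) through Uhrf2 (29.4), Dnmt1 (23.1), Uhrf1 (14.5) and Dnmt3a (12.6) to Dnmt3b (3.29). In controls they ran from Dnmt1 (91.8) through Hells (56.2), Uhrf2 (31.8), Dnmt3a (14.2) and Uhrf1 (3.30) to Dnmt3b (1.62). Uhrf1 stood below Dnmt3a in 8 of 8 controls, while in DCKO it stood above Dnmt3a in 5 of 10 libraries. The ranges of neighbours in either order overlapped, other than those of Dnmt3b and Dnmt3l. In controls Dnmt1 stood above Hells in 7 of 8 libraries and Uhrf1 above Dnmt3b in 6 of 8. At E10.5 the medians fell in the same order within each genotype. The gene models behind the RPKM are not named by the labels or headers, so levels of different genes carry that uncertainty.

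The genes that work with these enzymes were described from lists of partners, and 0 of the 43 tested passed at either stage in limma. At E11.5, 1 of the 43 had an unadjusted p under 0.05, as had 5.46% of all genes, and at E10.5 0 of the 43 had. Of 12 maintenance partners, which include PCNA and histone deacetylases, 4 were above 0 at E11.5 (median log2 fold change -0.21). Dmap1, a DNMT1-binding corepressor, had -1.0005 (SE 0.49, adjusted p = 0.902, limma). The kinase Csnk1d had 0.89 (SE 0.51, adjusted p = 0.912, limma). Of 15 partners of de novo methylation and silencing, 6 were above 0 (median -0.11). The remodeller Atrx had -0.36 (SE 0.21), and the histone demethylase Kdm1b, which in mouse oocytes is needed for imprint methylation, had 0.69 (SE 0.42).

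Of 8 readers of methylated CpG, 7 were tested and 2 were above 0 (median -0.06). Mbd2, a reader in the NuRD complex, was the gene with an unadjusted p under 0.05 (log2 fold change 1.29, SE 0.60, adjusted p = 0.902, limma). Of 9 genes listed for methyl donor supply, 3 were above 0 (median -0.22). Ahcyl1, a relative of Ahcy that need not act in this supply itself, had -0.27 (SE 0.23).

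At E10.5 the same lists had 5 of 12, 4 of 15, 1 of 7 and 5 of 9 genes above 0, with medians of -0.23, -0.26, -0.11 and 0.10. The genes with the smallest p were the deacetylase Hdac1 (-0.79, SE 0.37) and Cdca7, a partner of HELLS (-0.64, SE 0.41), among maintenance partners. They were the histone methyltransferases Suv39h2 (0.67, SE 0.45) and Ehmt2 (-0.75, SE 0.56) among silencing partners. Among readers they were Mbd1 (-0.57, SE 0.73) and Mbd4 (-0.39, SE 0.55). Among methyl donor genes they were Mat2b, a subunit of S-adenosylmethionine synthase (-0.65, SE 0.51), and Ahcy, which clears S-adenosylhomocysteine (0.66, SE 0.73).

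Within E11.5 males, 0 of the 43 passed in limma and 4 had an unadjusted p under 0.05. Among these were Suv39h2 (log2 fold change 1.25, SE 0.51), Csnk1d (1.63, SE 0.76) and Dmap1 (-1.54, SE 0.72). In E11.5 females 0 passed and 0 had such a p. Among all genes 6.95% had such a p in males and 2.17% in females.

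Likeness between genes was taken as the mean absolute difference in log2(RPKM + 1), each gene centred on its own mean, over the 18 E11.5 libraries. The genes most like Dnmt1 were Maml1 (0.52), Man2c1 (0.63) and Cnst (0.66), where Dnmt1 itself deviated from its mean by 1.07. Those most like Uhrf1 were Serpine2 (0.55), Alg2 (0.59) and Zbtb18 (0.63), beside a deviation of 1.28. Those most like Hells were Smc1b (0.27), Jade1 (0.29) and Sarnp (0.29), beside 0.45. For Dnmt3a they were AW551984 (0.39), Plxna2 (0.42) and Bach1 (0.42), beside 0.76. For Dnmt3b they were Gm12359 (0.50), Ncoa1 (0.52) and Arhgef10l (0.53), beside 0.88. For Uhrf2 they were Zfp942, Ccdc47 and Patl1 (each 0.29), beside 0.37. No member was among the 3 genes most like another member.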

How the data were processed

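The authors deposited 1 table of RPKM per stage, with 24318 genes and 1 column per sample. The submitters' processing notes name the build mm9, TopHat2 2.1.0, Cufflinks 2.2.1 and Cuffdiff, with roles not given. RNA was amplified before library preparation (Ovation RNA-Seq V2), per the labels' protocols, which can widen the spread of low genes. Gene models and filters: not given in the sources used here. Low values do not fall on whole-read steps, so depth is unknown and no counting interval is given. RPKM summed to between 669740 and 1121158 per library at E10.5 and between 516450 and 1027688 at E11.5. No 2 libraries were identical (highest correlation of log2 values 0.921 and 0.934).

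Groups follow stage, sex and genotype as labelled. Tests used limma 3.58.1 in R 4.3.3 on log2(RPKM + 1), with its intensity trend, and were tested on simulated data. The E11.5 model held 4 group means, with genotype as the average over the sexes of DCKO minus control, and the E10.5 model had additive genotype and sex terms. Single members were tested by exact two-sided permutation (Python 3.11.15) of the mean log2(RPKM + 1). The members and lists were chosen with earlier results of these data known. Named were all members, the 2 genes of each partner list with the smallest p in the comparisons over both sexes, the list genes with an unadjusted p under 0.05 in 1 sex, chosen after their values were seen, and the 3 genes most like each member. Some genes that fall under this rule are not reported here. Alternatives were pseudocounts of 0.1 and 0.5, no filter, a mean of at least 5 RPKM, median-of-ratios and quantile scaling, library weights, no trend, replicate blocks, covariates, other models and each library left out. Leaving out the libraries highest in somatic markers, or with the fewest genes, was chosen after seeing the data. Sequences are from RefSeq, GRCm38.p6.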

Additional observations from a re-analysis of the deposited data

Results flagged for a closer look

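In the 4 groups at E11.5, 8 of 24 tests on RPKM found a library far from the others of its group, where chance marks about 1 in 20 groups of normally distributed values. RPKM are skewed and were not logged for this, so that share is only a rough guide to the 8. Male DCKO 1 stood apart in 3 members. Its Uhrf1 was 108 RPKM (next highest 18.7), its Uhrf2 was 95.0002 RPKM (next highest 31.9) and its Hells was 27.9 RPKM (next lowest 56.1), beside a somatic mean of 2.40. Female DCKO 2 stood apart in Dnmt1, at 58.4 RPKM (next highest 28.7), and in Dnmt3b, at 14.7 RPKM (next highest 4.07), beside a somatic mean of 1.35. Female control 1 had 54.9 RPKM of Uhrf2 (next highest 32.3). Male control 4, the library with the fewest genes, had 296 RPKM of Dnmt1 (next highest 94.8). Male control 3, the library with the highest somatic mean (3.98), had 67.1 RPKM of Dnmt3a (next highest 14.1). The part of somatic cells and of library quality in these values was not tested.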

How the results depend on the processing

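The number of members past the threshold at E11.5 was 1 (Dnmt1) and became 0 with no filter (adjusted p of Dnmt1 0.105), with median-of-ratios scaling (0.0564), with no intensity trend (0.0973) and with the proliferation covariate (0.0606), while its log2 fold change lay between -2.10 and -2.02 in these 4 settings. It also became 0 without the libraries highest in somatic markers, without those with the fewest genes, and in 12 of 18 settings that left out 1 library (0 to 1; log2 fold change -2.25 to -1.85). It stayed 1 without female DCKO 2, male DCKO 1, male DCKO 3, female control 3, male control 1 or male control 2. With a replicate block it was 0 (log2 fold change -1.98, adjusted p = 0.702), as it was with the title number as the replicate block (-2.31, adjusted p = 0.0729). Neither number met the rule for pairing (every pair above 0.1): deviations of same-numbered E11.5 libraries correlated at -0.148 to 0.146 by replicate number and at -0.039 to 0.438 by title number. By title number 7 of 16 same-numbered pairs were above 0.1 (median 0.0768), as were 7 of 104 other pairs (median -0.0071), and 11 of 16 libraries correlated best with one of their own number. The labels do not say what the title number marks, and a shared litter or day is possible. In females the number was 0, and 1 (Dnmt1) with library weights. Dnmt1 stayed lower in every setting run. Small fold changes turned sign, with no call involved. Dnmt3b at E10.5 was 0.46 with library weights and -0.60 to 0.12 with each library left out (exact permutation p 0.467 to 1). Uhrf2 at E10.5 was 0.015 without the library highest in somatic markers (exact permutation p = 0.9) and -0.23 to 0.21 with each left out (exact permutation p 0.333 to 1). In females Dnmt3a was -0.055 with the somatic and -0.030 with the proliferation covariate. In males Dnmt3b was 0.01 in the main fit and 0.87 without the libraries highest in somatic markers. It was -0.18 and -0.041 with pseudocounts of 0.1 and 0.5, and -0.42 to 0.51 with each library left out. Uhrf2 in males was -0.041 with the title number block, -0.035 without the libraries highest in somatic markers and -0.13 to 0.50 with each left out. Hells in males was -0.32 with library weights, -0.28 with the somatic covariate, -0.13 without the libraries highest in somatic markers, -0.16 without those with the fewest genes and -0.38 to 0.32 with each left out. The cause of these changes was not tested. The exact permutation p of Dnmt1 at E10.5 was 0.0556 within sex and 0.0667 to 0.1 with each library left out, in each case the smallest the design allows, so these values do not bear on its stability. Dnmt3b had no value with a mean of at least 5 RPKM.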
